A study of Homo sapiens with 4 samples.

Results

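SK-BR-3 is a long-established line of human breast cancer cells in which HER2 is amplified and, by the labels, p53 is mutant. The comparison described here set SK-BR-3 cells carrying p53 shRNA against cells carrying control shRNA, on all 4 arrays of the series. The 2 arrays with p53 in the shRNA part of their titles were compared with the 2 arrays with the control shRNA. They form 2 matched pairs that have no array in common. In the sicon pair, p53 shRNA cells were set against control shRNA cells, and sicon is a term of the titles that the labels do not spell out. In the siPontin pair, both cultures also received siRNA against Pontin, a chromatin and protein-assembly ATPase encoded by RUVBL1. All cells grew in DMEM with 10% fetal bovine serum, were puromycin-selected after the shRNA or empty vector, and were harvested 24 h after the siRNA step. The titles name the control only as shcon, and whether it was this empty vector is not settled here. It is called control shRNA throughout. Each group was 1 culture on 1 array, labelled from 200 ng of RNA. Whether the pairs came from separate selections is not given, so differences that arose between selected populations and differences due to p53 shRNA cannot be told apart.

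p53 is a transcription factor that stops the cell cycle or triggers cell death when DNA is damaged. Missense mutants found in tumours usually fail to bind their normal DNA sites, often accumulate, and can bind other transcription factors. In luminal and HER2-positive breast cells, identity is kept by factors such as GATA3 and FOXA1, and apocrine differentiation is marked by secreted proteins such as PIP and AZGP1.

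Values are MAS5 signals, a brightness per probe set on a linear scale, and each gene was read through its brightest probe set with a single gene symbol. Of 19775 genes, 7752 had a mean signal of at least 110 and are called bright. A gene was called where both pairs differed by at least 1.5-fold in the same direction, a log2 ratio of 0.58. Ratios are always p53 shRNA over control shRNA, sicon pair first. With 1 array per group, calls were made by size, and the agreement of the pairs is the only repeat; p-values from treating the pairs as replicates appear only among the alternatives.

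The 4 arrays had been scaled to equal trimmed means, and their median signals ran from 15.9 to 19.6. The array with p53 shRNA and Pontin siRNA had the highest median, and all 18 of its hybridization control probe sets were higher than on the control array, by 1.43 times on average. This array is the numerator of every siPontin ratio. The hybridization controls were higher with p53 shRNA within both pairs, from 1 to 1.04 and from 1.15 to 1.43 relative to the control array, and so was the 3′ to 5′ ratio of the actin controls, a sign of RNA length, from 3.21 to 3.48 and from 2.66 to 2.96. The same ratio for GAPDH lay between 0.972 and 1.04 on the 4 arrays. The part of these differences in the results was not tested. Of 15 markers of the cell line fixed for this check, among them ERBB2, GRB7, KRT8 and EPCAM, 14 were bright and 0 were called. Of all bright genes, 0.219% were called higher and 0.413% lower, so 0 calls among 14 genes say little. Of 17 immune markers, 16 had mean signals under 50, and their summed signal was 234.1 and 210.1 on the control shRNA arrays against 246.3 and 263.5 on the p53 shRNA arrays. Of 20 fibroblast and mesenchymal markers, 17 were under 50.

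Across the 7752 bright genes, the ratios of the 2 pairs correlated at 0.50 by Pearson's measure and at 0.44 by Spearman's. The correlation is across genes, which share arrays and are not independent replicates. It was 0.49 for genes with mean signals from 110 to 300 and 0.61 for the 542 genes at 3000 or above. For the 4376 genes from 15 to 110, it was 0.16. In that dim class 158 genes were higher, 73 lower and 110 apart in opposite directions at 1.5-fold. Among bright genes, 17 were called higher (0.219%), 32 were called lower (0.413%), and 0 were apart in opposite directions (0.00%). Higher genes were 34.7% of the calls, 13.8% with arrays centred on their medians and 62.3% with no brightness limit. At a log2 ratio of at least 0.32 in both pairs, the looser limit used below, 152 were higher (1.96%), 151 lower (1.95%) and 30 opposite (0.387%). At 2-fold, 5 were higher (0.0645%) and 5 lower (0.0645%). Without any fold limit, 30.1% of bright genes were above 0 in both pairs, 36.6% were below 0 in both, and 33.1% had opposite signs. The 2 p53 shRNA signals lay wholly above or below the 2 control shRNA signals for 17 of 17 genes called higher and 31 of 32 called lower. This is a property of the rule in part, and it also held for 2917 of all 7752 bright genes.

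**Figure D1:**
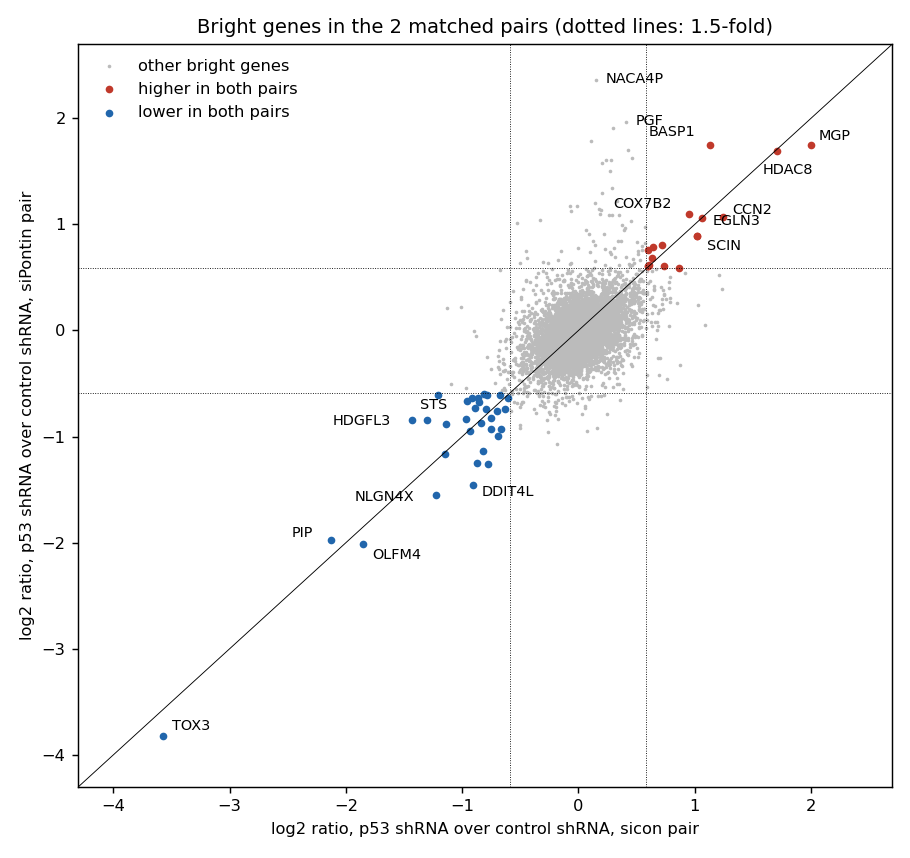
The log2 ratio of p53 shRNA over control shRNA in the sicon pair (horizontal axis) and the siPontin pair (vertical axis) for 7752 bright genes, one point each, with the 17 genes called higher in red and the 32 called lower in blue. TOX3 lies alone at the lower left, the called genes follow the diagonal, and a plume of grey genes such as NACA4P and PGF is high in the siPontin pair alone.

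Luminal and secretory genes led the lower side. TOX3, which encodes an HMG-box chromatin protein of luminal breast cells, had signals of 1025.5 and 864.4 with control shRNA and 86.3 and 61.2 with p53 shRNA. Its log2 ratios were -3.57 and -3.82. No other bright gene with a symbol of its own moved as far. PIP, a secreted apocrine protein gene, fell from 854 to 195.8 and from 875 to 222.2. OLFM4, which encodes a secreted glycoprotein of epithelial progenitors, fell from 1316.8 to 364.9 and from 1144.3 to 283.5. Both p53 shRNA signals of each gene lay far below both control signals, and the 2 pairs gave similar ratios. In a culture measured as a whole, fewer cells making a transcript and less of it per cell cannot be told apart.

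Other secretory products followed at smaller folds. AZGP1, the zinc-binding alpha-2-glycoprotein secreted by apocrine cells, fell from 467.1 to 255.5 and from 608.4 to 255.5. CEACAM6, a cell-surface adhesion glycoprotein gene, fell from 306.9 to 179.3 and from 315.8 to 131.9, and its other probe set was also called lower, at -0.73 and -0.97. PIP, OLFM4, AZGP1 and CEACAM6 were the 4 called members of 13 bright genes in the apocrine and secretory list. Of all bright genes, 0.413% were called lower. The list median log2 ratio was -0.15 against -0.01 for all bright genes. The pair medians were 0.00 and -0.14, and relative to all bright genes the list median ran from -0.26 to -0.06 over the alternatives. The difference was not general to the list, in which 6 genes were below 0 and 2 above 0 in both pairs. Of all bright genes, 36.6% were below and 30.1% above 0 in both pairs. PIGR, the receptor that carries antibodies across epithelia, had signals of 98.2 and 105 with control shRNA and 153.8 and 137.3 with p53 shRNA, ratios of 0.65 and 0.39. S100P, a calcium-binding protein gene, was at 0.20 and 0.22.

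Among luminal transcription factors, TOX3 and GATA3 were the 2 called of 19 bright members, against 0.413% of all bright genes called lower. GATA3 fell from 650.5 to 334.8 and from 556.2 to 350.4, and its further probe sets with a mean signal of at least 50 were below 0 as well, at -0.81 and -0.60 and at -0.57 and -0.52. TFAP2B, an AP-2 factor of luminal cells, was at -0.47 and -0.54, short of a call. Its relative TFAP2A was at 0.32 and 0.25, FOXA1 at 0.15 and 0.29, and SOX4 at 0.23 and 0.32. The list had 6 members above and 6 below 0 in both pairs and a median of 0.02, so its 2 called genes stood apart from the rest. ELF5, a factor of luminal progenitors chosen for mention after its values were seen, lay just under the brightness limit with a mean signal of 89.1 and ratios of -1.32 and -0.74.

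Some lower calls act on hormones or fatty acids; they are put together here for reading only, after the calls were made, and were not tested as a group. In the gene lists, fatty acid and lipid genes had a median of 0.03 over 26 bright members and cholesterol synthesis genes 0.01 over 21, with 0 called in either. CYP4Z1, a breast-enriched fatty acid hydroxylase gene, fell from 1331.9 to 601.2 and from 928.2 to 414.7, ratios of -1.15 and -1.16. Its pseudogene CYP4Z2P, which is close in sequence and may share hybridization, was below the brightness limit at a mean signal of 90.5 with ratios of -0.83 and -0.95. STS, the steroid sulfatase that releases active steroids from their sulfates, fell from 354.2 to 143.9 and from 326.5 to 182. Its other probe set, with a mean signal of 59.8, gave only -0.06 and -0.10, so the STS call rests on 1 probe set. DIO2, which converts the thyroid prohormone to its active form, fell from 775.2 to 480.4 and from 602.7 to 302, and 4 further probe sets were below 0 in both pairs. CGA, the shared alpha subunit of the pituitary glycoprotein hormones, fell from 427.2 to 219 and from 597.2 to 335.9. The higher of its p53 shRNA signals stayed below the lower control signal.

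**Figure D2:**
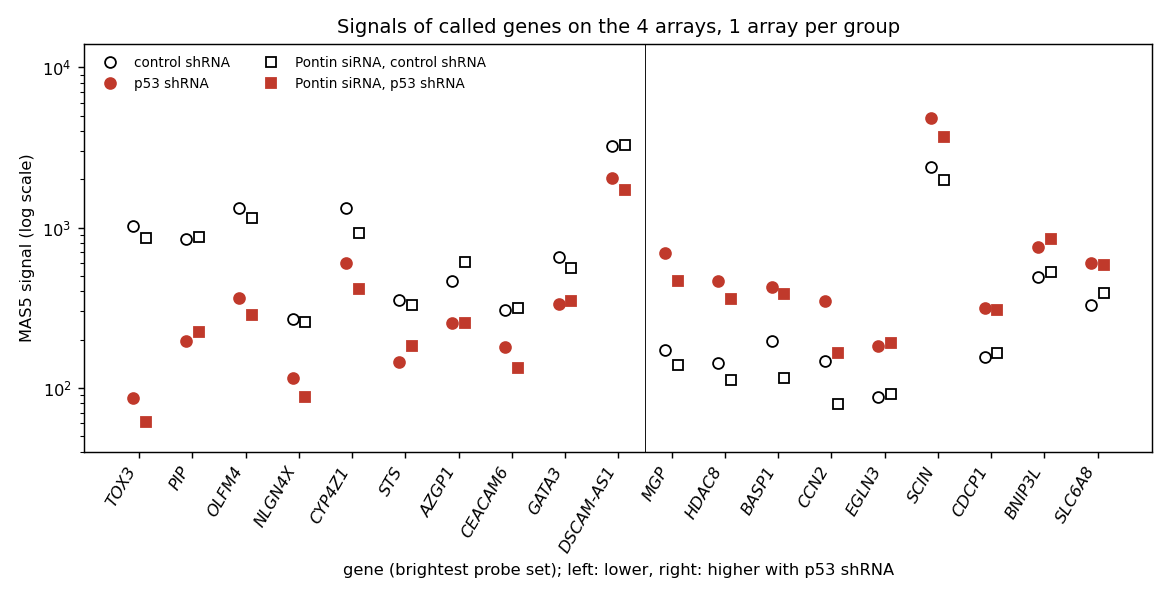
MAS5 signals on the 4 arrays (vertical log axis) for 10 genes called lower and 9 called higher; open symbols are control shRNA, red symbols p53 shRNA, circles the sicon pair and squares the siPontin pair, 1 array each. Red and open symbols separate for each gene drawn; in CCN2 the p53 shRNA signal of the siPontin pair, 164.9, is close to the control shRNA signal of the sicon pair, 146.5.

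The remaining lower calls crossed many functions. HDGFL3, a gene of the hepatoma-derived growth factor family, fell from 221.7 to 82.1 and from 204.3 to 114.2, and all 5 of its further probe sets were called lower too. DDIT4L, an inhibitor of mTOR signalling, fell from 265.5 to 141.5 and from 343.9 to 125.1. NLGN4X, a synaptic adhesion gene, was at -1.22 and -1.55. PEG10, an imprinted gene derived from a retrotransposon, was at -1.14 and -0.88, and its other probe set, not called, at -0.48 and -0.50. GTSF1, a factor of the germline small RNA pathway, was at -0.82 and -1.13. QDPR, which regenerates the tetrahydrobiopterin cofactor, was at -0.93 and -0.95. DSCAM-AS1, an antisense RNA of luminal breast cancers, fell from 3232.1 to 2031.7 and from 3290.4 to 1725.8. PCP4, which encodes a calmodulin-binding peptide, fell from 1237.2 to 800.4 and from 1162.1 to 695. DSCAM-AS1 and PCP4 stayed well above the limit of 110 with p53 shRNA. Both p53 shRNA signals of QDPR, 90.4 and 84, were under it. So were those of HDGFL3 in the sicon pair, 82.1, and of NLGN4X in the siPontin pair, 87.1.

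Metabolic and transport genes among the lower calls included PSAT1, of serine synthesis, at -0.92 and -0.64. The peptide transporter gene SLC15A1 was at -0.85 and -0.68, the lysosomal transporter gene SLC46A3 at -0.79 and -0.74, and QPCT, which forms pyroglutamate at protein ends, at -0.86 and -0.64. TUBB2A, a beta-tubulin gene, was at -0.75 and -0.82. TNIK, a kinase gene of Wnt signalling, was at -0.70 and -0.76. TGFBR3, whose product presents TGF-beta to its receptors, was at -0.81 and -0.60, but its other probe set gave -0.36 and 0.08. It was the 1 lower gene whose groups overlapped, since its control shRNA signal of the sicon pair, 129.8, was below its p53 shRNA signal of the siPontin pair, 130.6. The zinc finger genes ZNF320 and ZNF789 were called on 1 probe set each, while their other probe sets had mean ratios of -0.11 for ZNF320 and of -0.01 and 0.05 for ZNF789. The other lower calls were MALL, KRTCAP3, PPP1R9A, LOC374443 and CDC14B, with mean ratios from -0.62 for CDC14B to -0.86 for PPP1R9A. Further probe sets of PPP1R9A, at -0.30 and -0.22, and of CDC14B, at -0.02 and -0.43 and at -0.40 and -0.50, were not called.

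Some higher calls encode matrix, membrane or cell contact proteins. They are put together here for reading only, after the calls were made, and were not tested as a group. In the gene lists, extracellular matrix genes had a median of -0.02 over 18 bright members. Integrin and focal adhesion genes had a median of 0.10 over 19. MGP, an inhibitor of calcification in the matrix, rose from 172.5 to 691.2 and from 138.1 to 462.5. CCN2, a matricellular growth factor and a classic target of the YAP and TEAD regulators, rose from 146.5 to 346.4 and from 78.7 to 164.9. BASP1, a membrane-bound signalling protein gene that also acts as a transcriptional corepressor, rose from 194.7 to 426.5 and from 115.4 to 387.6. CDCP1, a transmembrane substrate of SRC kinases, rose from 156.1 to 315.9 and from 165.1 to 306.7. CTNND2, a delta-catenin gene of cell contacts, was at 0.60 and 0.75. The 2 pairs gave similar ratios for these genes except BASP1, at 1.13 and 1.75.

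MGP and CCN2 were the 2 called of 13 bright matricellular and YAP-TEAD genes, of which 9 were above and 1 below 0 in both pairs. Of all bright genes, 0.219% were called higher, 30.1% were above and 36.6% below 0 in both pairs. The list median was 0.15; relative to all bright genes it was 0.16, and 0.05 with the mean over probe sets. THBS1, which encodes thrombospondin-1, had signals of 867.4 and 525.3 with control shRNA and 1150.2 and 733.9 with p53 shRNA. F3, the tissue factor that starts coagulation, was at 0.48 and 0.45. Both passed the looser limit of 0.32. TEAD4, the DNA-binding partner itself, was at -0.19 and -0.18.

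SCIN, which encodes the actin-severing protein scinderin, was bright on each array. Its signals were 2381.7 and 1987.4 with control shRNA and 4818 and 3684 with p53 shRNA, ratios of 1.02 and 0.89, and both further probe sets were called higher. SLC6A8, the creatine transporter gene, rose from 330.4 to 603.3 and from 390.8 to 587.6. GPX2, an epithelial glutathione peroxidase gene and a target of NRF2, was at 0.60 and 0.61, and MXD1, a MYC antagonist gene, at 0.60 and 0.61. The other MXD1 probe set, with a mean signal of 147.6, gave only 0.30 and 0.24. GALNT12, which begins mucin-type O-glycosylation, was at 0.61 and 0.61. COX7B2, a cytochrome oxidase subunit gene of the testis, was at 0.95 and 1.10, and COXFA4L3 was at 0.74 and 0.61. The divergent transcript STX17-DT was at 0.72 and 0.80, with both control shRNA signals, 81.1 and 107.8, under the limit of 110. For HDAC8, a class I histone deacetylase gene, the brightest probe set gave 1.71 and 1.69 and another gave 1.09 and 0.96. The remaining HDAC8 probe set with a mean signal of at least 50 gave -0.03 and -0.16, so its probe sets disagreed.

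Further probe sets gave a check within the same arrays. For 22 of the 49 called genes, 36 further probe sets reached a mean signal of 50, and 31 of the 36 had the sign of the brightest probe set in both pairs. Of these 36, 18 were themselves called. The brightest probe set was of a type that can cross-hybridize for 6 of the 17 higher and 9 of the 32 lower genes. For 8 higher and 19 lower genes no further probe set reached that level.

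**Figure D3:**
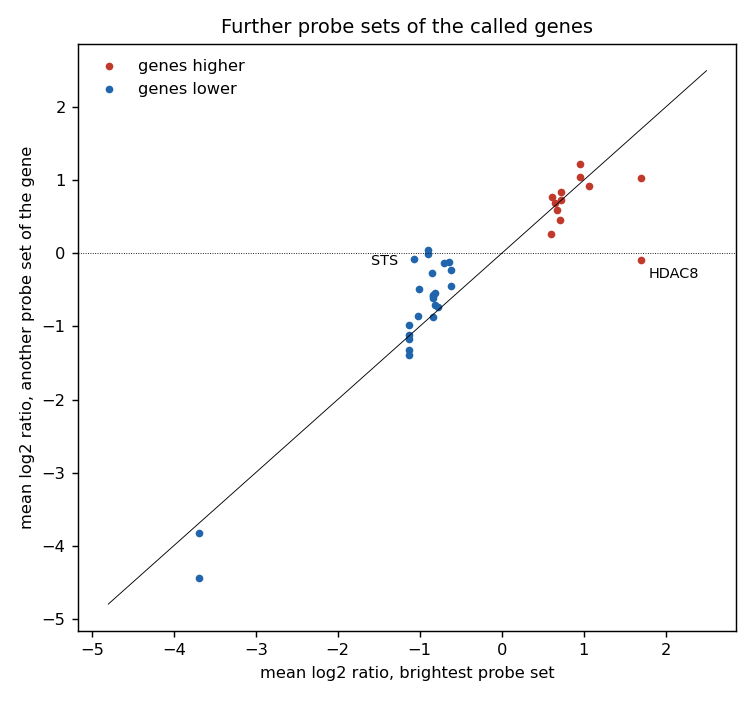
Mean log2 ratio of each of 36 further probe sets (vertical axis) against that of the brightest probe set of the same called gene (horizontal axis), with the line of equality. Most points lie near the line; HDAC8 has 1 probe set near 0, and STS and ZNF789 have probe sets near 0 where the brightest is clearly below.

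Of 30 bright genes of the hypoxia response, 19 were above and 3 below 0 in both pairs, where 30.1% and 36.6% of all bright genes were. Their median was 0.17, and 3 were called higher, as were 0.219% of all bright genes. EGLN3, a prolyl hydroxylase that acts on hypoxia-inducible factor, rose from 87.1 to 182.1 and from 91.3 to 190.6. ANGPTL4, a secreted lipase inhibitor gene, rose from 165.4 to 257.9 and from 178.3 to 307.6, with its other probe set at 0.36 and 0.55, not called. BNIP3L, a mitophagy receptor gene, rose from 490.7 to 759.4 and from 527.8 to 845.1, with its other probe set at 0.74 and 0.63. In all 3 genes both p53 shRNA signals exceeded both control signals, as in all 17 genes called higher, which the rule in part fixes. Both control signals of EGLN3 were under the limit of 110, so only its p53 shRNA signals made it bright. Including the 3 calls, 8 members were higher at the looser limit, 0 were lower and 2 were opposite. Over all bright genes these shares were 1.96%, 1.95% and 0.387%. EPAS1, which encodes the HIF-2 alpha subunit, was on the other side at -0.20 and -0.30. As a hypoxia list had already been described in these data, this count is not independent of that description.

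The promoters of 3 called genes are shown because their known regulators bind short sequences that can be searched for. They are RefSeq sequences of GRCh38.p14, from 250 bases before to 50 bases after the transcription start, 5′ to 3′ on the gene's strand. The letters searched on both strands included GGAATG, the core of TEAD sites, reading CATTCC in reverse complement. The others were ACGTG, the core of hypoxia-inducible factor sites, reading CACGT in reverse complement, CCAAT, the NF-Y box, reading ATTGG, and GGCGGGAA, an E2F site, reading TTCCCGCC. None of these motifs overlaps another in the sequences below, and capitals mark the matches. CCN2 is at chr6:131951323-131951622 on the minus strand, ANGPTL4 at chr19:8363905-8364204 on the plus strand and EGLN3 at chr14:33951025-33951324 on the minus strand.
CCN2: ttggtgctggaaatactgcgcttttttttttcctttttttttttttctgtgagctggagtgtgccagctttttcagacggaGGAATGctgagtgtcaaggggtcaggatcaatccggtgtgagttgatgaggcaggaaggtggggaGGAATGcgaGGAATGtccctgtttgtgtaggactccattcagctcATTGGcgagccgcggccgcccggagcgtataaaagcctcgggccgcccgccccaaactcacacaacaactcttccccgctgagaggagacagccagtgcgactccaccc
ANGPTL4: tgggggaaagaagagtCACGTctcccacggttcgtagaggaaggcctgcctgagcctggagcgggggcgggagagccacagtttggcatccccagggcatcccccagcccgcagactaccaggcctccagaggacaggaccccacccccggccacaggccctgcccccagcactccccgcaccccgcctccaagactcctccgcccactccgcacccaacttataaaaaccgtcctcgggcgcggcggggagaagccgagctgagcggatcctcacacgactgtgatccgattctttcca
EGLN3: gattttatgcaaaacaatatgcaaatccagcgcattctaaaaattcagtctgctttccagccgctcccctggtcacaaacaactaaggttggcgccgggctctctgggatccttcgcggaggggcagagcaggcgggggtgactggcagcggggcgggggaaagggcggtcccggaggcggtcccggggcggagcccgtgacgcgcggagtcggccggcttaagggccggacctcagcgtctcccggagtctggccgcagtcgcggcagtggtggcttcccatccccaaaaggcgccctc

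The CCN2 window held 3 copies of GGAATG and 1 reverse CCAAT, the ANGPTL4 window held 1 reverse ACGTG, and the EGLN3 window held none of the 4 motifs. Over called genes, GGAATG was present in the promoters of 2 of 14 higher and 2 of 27 lower genes with an entry, against 16.7% of 27305 genes in the table and 14.1% of bright genes. ACGTG was present in 3 of 14 and 5 of 27, against 24.9% and 34.5%. CCAAT was present in 7 of 14 and 13 of 27, against 39.7% and 44.9%. GGCGGGAA was present in 0 of 14 and 2 of 27, against 3.79% and 6.86%. Genes with several listed starts had more sequence searched, and a match is a description of the letters alone.

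The insulin-like growth factor axis had 6 bright genes, of which 4 were above and 0 below 0 in both pairs, and a median of 0.34. Of all bright genes, 30.1% were above and 36.6% below 0 in both pairs. This small list depended on the brightness limit: the median was 0.53 with the limit on the arithmetic mean, 0.50 at a signal of 300 and 0.14 with no limit. IGFBP5, a binding protein gene, had signals of 1564.7 and 1312.3 with control shRNA and 2279.5 and 1940 with p53 shRNA, ratios of 0.54 and 0.56. IGFBP2 was at 0.51 and 0.75. INSR, the insulin receptor gene, was at 0.27 and 0.74 and IGF2R, which clears the ligand, at 0.14 and 0.21. None of the 6 bright genes passed the 1.5-fold rule. IGFBP3 was under the brightness limit with a geometric mean signal of 81.4, though its ratios were 2.25 and 2.48. Its signals were 48.8 and 26.3 with control shRNA and 232 and 147.2 with p53 shRNA.

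Immediate early and MAPK feedback genes had 14 of 21 members above and 2 below 0 in both pairs and a median of 0.18, and 0 were called. Among all bright genes the shares were 30.1% above and 36.6% below. SPRY1, a feedback inhibitor gene of receptor tyrosine kinases, was at 0.32 and 0.28, IER5 at 0.29 and 0.26 and KLF2 at 0.36 and 0.24. JUN was at -0.03 and -0.14. Epithelial junction and polarity genes had 19 of 27 above and 4 below 0 in both pairs, a median of 0.08 and 0 calls.

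Of 51 bright cytosolic ribosomal protein genes, 42 were above and 0 below 0 in both pairs. The list median was 0.14, and 0 were called. RPL6 was at 0.28 and 0.25 and RPS28 at 0.16 and 0.20. The pair medians differed, at 0.05 and 0.22. RPL6 and RPS28 belong to the class of signals at 3000 or above, whose 542 genes had pair medians of 0.02 and 0.08. In that class 51.1% of genes were above and 20.8% below 0 in both pairs, where 30.1% and 36.6% of all bright genes were. Set against genes of the same signal class, the list median was 0.09, and after quantile normalization it was 0.0086, or 0.02 above the median of all bright genes. Mitochondrial ribosomal protein genes lay on the other side, with 14 of 70 above and 41 below 0 in both pairs and a median of -0.06. Of 27 tRNA synthetase genes, 5 were above and 17 below 0 in both pairs. The list median was -0.13, and 0 were called. AARS1, which charges alanine tRNA, had signals of 552 and 633.1 with control shRNA and 426.1 and 427.9 with p53 shRNA, ratios of -0.37 and -0.57. GARS1 was at -0.26 and -0.25. On the other side, the mitochondrial synthetase gene WARS2 was at 0.15 and 0.31.

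Serine and one-carbon enzymes included PSAT1 as the only call among 18 bright members, with 2 above and 10 below 0 in both pairs and a median of -0.10. For this and the lists that follow, 30.1% of all bright genes were above and 36.6% below 0 in both pairs. GLDC, the glycine decarboxylase gene of mitochondria, had signals of 1263.7 and 990.3 with control shRNA and 767.7 and 701.8 with p53 shRNA, ratios of -0.72 and -0.50. PHGDH, the first enzyme of serine synthesis, was at -0.18 and -0.39. Nucleotide synthesis genes had 5 of 25 above and 14 below 0 in both pairs and a median of -0.08. Within it CTPS1, which makes CTP, was at -0.31 and -0.29 and PFAS, of purine synthesis, at -0.40 and -0.31. DNA repair genes had 6 of 47 above and 25 below 0 in both pairs and a median of -0.08, heat shock and chaperone genes 5 of 35 and 21 of 35 and -0.08, and mitotic genes 7 of 47 and 26 of 47 and -0.07. G1/S genes, whose downward median had been described before, had 7 of 44 above and 28 below. Calls in these last 5 lists numbered 0. Of all bright genes, 0.219% were called higher and 0.413% lower, so 0 calls here say little. Centring the arrays on their medians moved the median of all bright genes to -0.14. Relative to that median in each setting, every list given a median in this paragraph kept its sign under the 9 alternatives tried. Median centring, among the 9, shifts every ratio alike and could not change a relative sign. The cytosolic and mitochondrial ribosomal protein, tRNA synthetase, hypoxia, apocrine, insulin-like growth factor and matricellular lists also kept their signs. The luminal transcription factor, cholesterol synthesis, and metallothionein and iron handling lists did not. The sizes were less stable: relative to that median, mitochondrial ribosomal proteins ran from -0.07 to -0.03, tRNA synthetases from -0.16 to -0.08, nucleotide synthesis from -0.11 to -0.06 and DNA repair from -0.08 to -0.04.

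**Figure D4:**
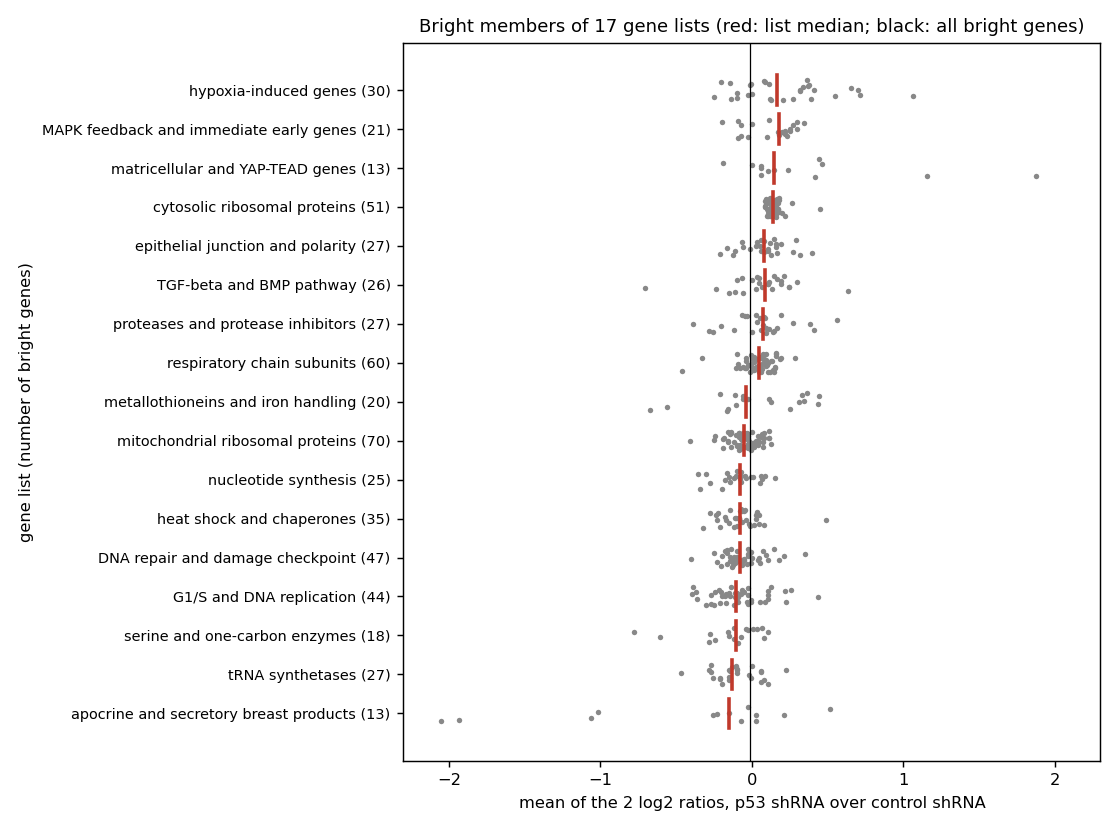
Mean of the 2 log2 ratios (horizontal axis) for each bright member of 17 gene lists, 1 point per gene, with the list median in red and the median of all bright genes, -0.01, as a black line. The cytosolic ribosomal proteins form a tight group above 0, and the apocrine list holds 4 far lower genes beside members near 0.

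The list of metallothioneins and iron handling had 9 of 20 bright genes above and 9 below 0 in both pairs, a median of -0.04 and 0 calls. Among all bright genes the shares were 30.1% above and 36.6% below. Within the list, metallothionein genes, which encode metal-buffering proteins, had ratios above 0. MT1H had signals of 2099.8 and 1461.7 with control shRNA and 2899 and 1930.4 with p53 shRNA, ratios of 0.47 and 0.40. MT1F was at 0.39 and 0.33, MT1G at 0.35 and 0.33 and MT2A at 0.27 and 0.39. Metallothionein probe sets share near-identical sequence, so these 4 are not separate observations. The zinc exporter gene SLC30A1 had signals of 600.4 and 548.7 with control shRNA and 401.5 and 324 with p53 shRNA, ratios of -0.58 and -0.76, just outside the 1.5-fold rule. The zinc importer gene SLC39A10 was at -0.38 and -0.74. None of these was called.

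Signalling lists held single genes with larger ratios on both sides of 0. In the Wnt pathway, the receptor gene FZD6 was at -0.57 and -0.57 and ZNRF3, a ligase that removes such receptors, at -0.44 and -0.52. DVL1, a relay protein gene of the same pathway, was at 0.41 and 0.56, and SOX9 at 0.37 and 0.43. In the interferon list, ISG15 was at -0.57 and -0.60 and PARP12 at -0.39 and -0.46, while IFITM1 was at 0.54 and 0.27. Among S100 proteins, S100A7, a secreted protein of stressed epithelium, had signals of 378.4 and 346.2 with control shRNA and 267.4 and 186.4 with p53 shRNA. S100A10 was at 0.34 and 0.33. PLAU, which encodes urokinase, was at 0.48 and 0.64. None of these reached a call in both pairs.

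The ratio varied by chromosomal neighbourhood. Bright genes were placed in the order of the GRCh38.p14 gene table and divided into 300 blocks of 25 neighbours, a division chosen after the data had been examined. Block medians of the 2 pairs correlated at 0.58 over the 300 blocks, a description over genes of the same arrays. Of the 5 blocks with the lowest medians, 4 adjoin on chromosome 16, from BRD7 to CENPN. The remaining block ran from HMGN1 to SUMO3 on chromosome 21, with a median of -0.16. Of the 5 with the highest, 4 adjoin on chromosome 6, from NEDD9 to WDR46. The remaining block ran from SLC2A10 to PFDN4 on chromosome 20, with a median of 0.11. Over whole chromosomes, the highest median was that of chromosome 19, at 0.05, against 0.04 for chromosome 6.

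The chromosome 16 run held 100 bright genes, of which 13 were above and 68 below 0 in both pairs, with pair medians of -0.17 and -0.15. The other 225 bright genes in blocks of chromosome 16 had pair medians of -0.04 and -0.05, with 42.2% below 0 in both pairs. TOX3 lies in this run and was its only called gene; the median of the other 99 genes was -0.16. The lowest block ran from CX3CL1 to RIPOR1 and had 18 of 25 genes below 0 in both pairs. In it, ATP6V0D1, a proton pump subunit gene, was at -0.47 and -0.57, CIAPIN1, of iron-sulfur cluster assembly, at -0.44 and -0.46, CMTM4 at -0.43 and -0.39 and NAE1, of the NEDD8 pathway, at -0.37 and -0.35. The differences were small for each gene and spread over the run, beside the large one of TOX3. Not all of the run lay below 0: in the block from BRD7 to ARL2BP, which holds TOX3, 8 of 25 genes were above 0 in both pairs, and 6 of these 8 were metallothionein genes. With probe sets of the cross-hybridizing types left out, the median of the remaining 61 genes was -0.17. Between arrays that differed in Pontin siRNA, the same 100 genes had medians of 0.00 and 0.01. The other 225 genes had 0.06 and 0.06 in that comparison, so the run lay below them there too.

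The chromosome 6 run held 100 bright genes, of which 68 were above and 10 below 0 in both pairs, with pair medians of 0.14 and 0.15 and 0 calls. The other 300 bright genes in blocks of that chromosome had pair medians of 0.03 and -0.02. The highest block ran from NEDD9 to ACOT13, where 22 of its 25 genes were above 0 in both pairs and the median was 0.20. NEDD9, a focal adhesion scaffold gene, was at 0.79 and 0.31, KDM1B, a histone demethylase gene, at 0.73 and 0.35, ATXN1 at 0.65 and 0.42 and MYLIP, a ligase that degrades lipoprotein receptors, at 0.47 and 0.45. Between arrays that differed in Pontin siRNA, the 100 genes had medians of -0.02 and -0.03. The other 300 genes had -0.03 and -0.07 in that comparison. Genes named from both runs were picked after their values were seen. The cause of either run was not tested.

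**Figure D5:**
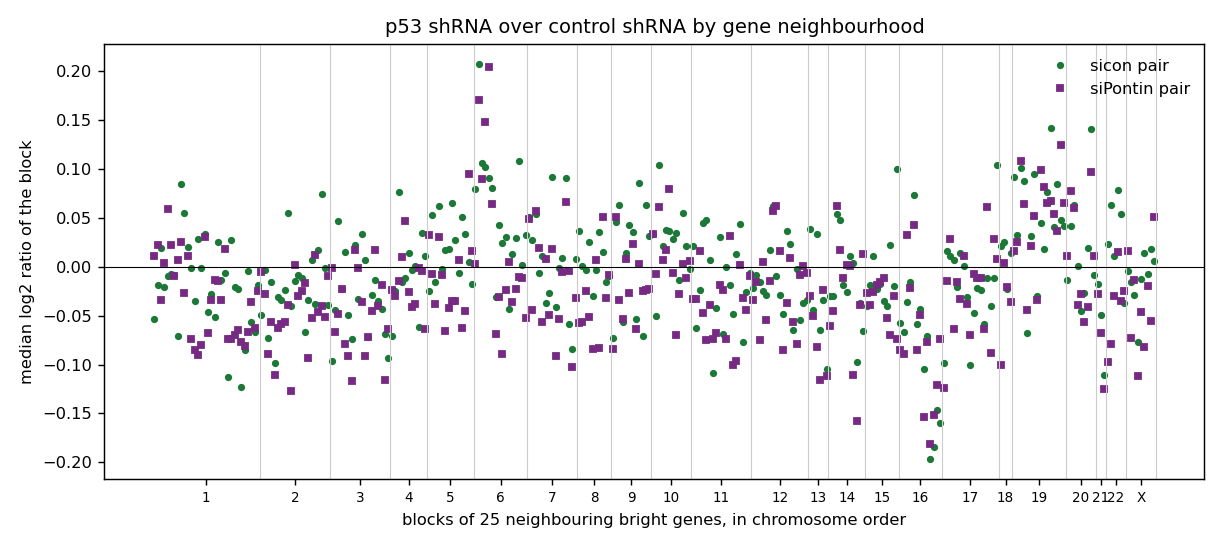
Median log2 ratio, p53 shRNA over control shRNA, of each of 300 blocks of 25 neighbouring bright genes in chromosome order (horizontal axis), circles for the sicon pair and squares for the siPontin pair. Both pairs dip on chromosome 16, to -0.20 and -0.18 in the lowest block, and peak on chromosome 6.

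Of the called genes, 7 neighbouring pairs had at most 9 bright genes between them, and in 6 of the 7 both genes had the same direction. How many pairs a random placement would give was not tested. PEG10 and PPP1R9A on chromosome 7 had 0 bright genes between them, as did PCP4 and DSCAM-AS1 on chromosome 21. NLGN4X and STS on the X chromosome had 1, and ZNF789 and AZGP1 on chromosome 7 had 3. Both members of each of these 4 pairs were lower. CTNND2 and BASP1 on chromosome 5 and GALNT12 and STX17-DT on chromosome 9, each with 4 bright genes between them, were higher. CDC14B, lower, and GALNT12, higher, were opposed, with 9 between them.

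The pairs disagreed mainly in 1 direction. At least 2-fold higher in the siPontin pair and under 1.5-fold apart in the sicon pair were 26 bright genes, against 1 that was lower in this way. The reverse pattern, 2-fold in the sicon pair alone, held for 4 higher and 3 lower genes. The pseudogene NACA4P reached a signal of 6741.9 on the array with p53 shRNA and Pontin siRNA, where the remaining arrays gave 1523.2, 1695.8 and 1308.5. PGF, the placental growth factor gene, had 444.6, 591.3 and 415.8 on those arrays and 1624.6 on that one. CDK13, a transcription kinase gene, had 682.8, 823.5 and 644.3 and then 1828.5. In these 3 genes, chosen after their values were seen, the array that also had the highest hybridization controls stood apart; the difference between pairs was not tested.

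The brightness limit and the fold set the edge of the called set. BCL11B, at -1.96 and -1.23 with a mean signal of 105.1, IGFBP7, at 1.16 and 0.78 with 104.3, and MYO7A, at 0.81 and 0.73 with 103.7, met the fold and missed the limit of 110. The limit is on the geometric mean. With it on the arithmetic mean, 19 genes were called higher and 33 lower. ZNF789, at 114.9, and QDPR, at 120.8, were just inside. A further 33 bright genes had the same sign in both pairs and a smaller ratio between 0.5 and 0.58, of which 16 were higher and 17 lower. VEGFA, at 0.57 and 0.83, was among those just outside, and SLC6A8, at 0.87 and 0.59, was just inside.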

How the data were processed

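RNA of 4 SK-BR-3 cultures was measured on 1 Affymetrix array each, with 54675 probe sets. The authors deposited signal intensity values on a linear scale, made with MAS5 per the submitters' processing notes, which give no version; the deposited arrays had equal trimmed means. Of the probe sets, 41097 carried 1 gene symbol in the platform annotation, 41043 of them matched a human gene table by Entrez identifier, 1801 carried several symbols and 11777 none listed. The small number of arrays limits precision.

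Signals were taken to log2 without further normalization or pseudocount, 14 signals of 0 being set to 0.1. Ratios, counts and medians were computed with Python 3.11.15, pandas 2.3.3 and numpy 2.4.6, and figures with matplotlib 3.10.9. Quantile and cyclic loess normalization and a fit of the pairs as replicates used limma 3.58.1 in R 4.3.3. The scripts, not the choice of 1.5-fold, were checked on simulated data. Named genes were those called, up to 40 per direction, and per list its called members and up to 4 per direction with the largest smaller ratio; genes named outside this rule, the neighbour blocks and the promoters shown were chosen after values were seen. The members and the 61 gene lists were chosen with earlier results of these data known. Alternatives covered normalization, pseudocount, brightness, probe set, fold and pairs. Values for the shRNA's own target are not given here.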

Additional observations from a re-analysis of the deposited data

Results flagged for a closer look

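Bright probe sets without a single gene symbol lay outside the gene analysis and numbered 1478. Of these, 10 were higher, 9 lower and 3 apart in opposite directions by the 1.5-fold rule. Of bright genes, 0.219% were called higher and 0.413% lower. Some of the lower probe sets carry the same symbols, TARP, TRGV9 and TRGC2 or FOLH1B and FOLH1, so they are not all separate transcripts. Among the higher ones, probe set 234623_x_at had signals of 56.8 and 88.1 with control shRNA and 1885.4 and 2774.5 with p53 shRNA. Its mean log2 ratio was 5.01. Probe set 224354_at had 166.6 and 146.6 against 3389.3 and 3824.4, a mean of 4.53. A further such probe set of the higher kind had a mean of 3.74. These 3 ratios exceeded that of every named bright gene in size, and the annotation used here lists no gene for them.

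At a log2 ratio of at least 0.32, 30 bright genes were apart in opposite directions in the 2 pairs, 17 of them lower and 13 higher in the sicon pair. POTEM was at -0.53 and 1.01, RASEF at -0.33 and 1.04, MTERF1 at 0.76 and -0.46 and NRARP, a Notch feedback gene, at -0.50 and 0.64. The difference between pairs was not tested.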

How the results depend on the processing

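With 1 array per group, each count rests on 2 pairs. Against 17 higher, 32 lower and 0 opposite genes, cyclic loess gave 1 opposite gene, arrays centred on their medians gave 8, 50 and 2, and a pseudocount of 16 gave 11 higher. A signal of at least 300 gave 3 higher and 12 lower, no limit gave 1188, 719 and 1690 opposite, and the mean over probe sets gave 8 opposite. At a log2 ratio of 0.32 the counts were 152, 151 and 30, and at 2-fold 5 higher and 5 lower. The sicon pair alone gave 71 and 72 and the siPontin pair alone 88 and 103. A limma fit took the 2 pairs as replicates (a replicate block), with 1 residual degree of freedom. It gave 181 higher and 165 lower genes at a Benjamini-Hochberg adjusted p under 0.05. The 346 held all 49 called genes. As the fit and the size rule use the same arrays and both favour large, similar pair ratios, this is no separate support. Quantile normalization, the arithmetic mean signal and leaving out cross-hybridizing probe set types kept each count within 1.5 times. Of the 49 named genes, 9 lost the call with median centring, 11 with the pseudocount, 1 each with quantile and loess normalization, 2 with the mean over probe sets, where 21 more left the set and 26 kept the call, and 2 without cross-hybridizing types, where 12 left. At a signal of 300, 34 left. None present changed sign. Median centring moved the median of all bright genes to -0.14. Relative to that median, 34 of 58 lists kept 1 sign over 9 alternatives, 21 above and 13 below. Median centring, among the 9, shifts every ratio alike and could not change these relative signs. The lowest and highest blocks were the same after quantile and loess normalization. Blocks of 15 or 50 genes, also tried after seeing the data, had their lowest medians on chromosome 16 (-0.20 and -0.17) and their highest on chromosome 6 (0.28 and 0.13). Other causes were not tested.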
